A study of Arabidopsis thaliana with 6 samples.

Results

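The genes described here are Arabidopsis thaliana loci that encode TIR-only or TIR-NB proteins, which carry a Toll/interleukin-1 receptor (TIR) domain, with or without a nucleotide-binding (NB) domain, but lack the leucine-rich repeats (LRR) of full-length immune receptors. Of 36 listed loci, 28 had a probe set annotated to that gene alone and are reported, each by that 1 probe set, among 13355 genes measured in all. The members were picked by gene family, but with earlier results of these data known. Their levels were compared between the ka120 mutant and the wild type (WT, accession Col-0), with 3 biological replicates and 1 expression array for each replicate. KA120 (AT3G08960) encodes a nuclear transport receptor of the importin-beta family, and the comparison asked which transcripts differ when it is mutated. The plants were untreated and grew on soil at 22 °C, with days and nights of 12 h each. The study's design text gives whole rosettes at 3 weeks, whereas the growth protocol gives 4 weeks and the tissue label mature leaf. The sources used here give neither the kind of ka120 allele nor the number of plants behind each replicate.

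Plant TIR domains are enzymes that cleave the nucleotide NAD+, and the small molecules they release are sensed by EDS1 in complex with PAD4 or SAG101. These complexes then engage helper receptors with an NB domain and LRR, which leads to defence gene expression and, in some cases, cell death. Proteins with a TIR domain but no LRR belong to this system either as signalling partners of full receptors or as sensors and amplifiers of their own, and overexpression of several of them triggers cell death in leaves.

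For KA120 itself the log2 levels were 3.65, 4.12 and 4.17 in the mutant and 4.55, 4.34 and 4.42 in WT. The mutant arrays all lay below the WT arrays, but the levels were under the array medians of 4.63 to 4.79. Where the probes lie with respect to the mutation is unknown here, so these levels check the genotype only weakly. The leaf character of the samples was checked with genes of the light reactions and the Calvin cycle. The 6 measured genes had WT means between percentiles 99.6 and 99.97 of all probe sets. Their mean log2 level was 12.18 to 12.27 on the WT arrays and 11.74 to 11.79 on the ka120 arrays. Of the 6, 5 were called lower, where 15.5% of all genes and 26.2% of genes above the median probe set were. Of 5 measured genes of guard cells, trichomes and root hairs, the trichome regulator TRY fell, by 1.07 on the log2 scale, and the other 4 did not pass the test. The mean log2 level of all 5, TRY included, was 4.39 to 4.51 in WT and 4.09 to 4.16 in ka120. Because tissue was taken in bulk, a change in the share of a cell type and a change in RNA per cell cannot be told apart, and the part of either marker list in the results that follow was not tested.

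Of the 28 measured TIR-only and TIR-NB genes, 10 were higher in ka120, 1 was lower and 17 did not pass the test (limma, Benjamini-Hochberg adjusted p under 0.05 over all probe sets). Across all 13355 genes 17.5% were called higher and 15.5% lower. The members' shares were 35.7% higher and 3.57% lower. A difference of at least 2-fold was reached by 5 of the members that rose and by 0 of those that fell. Of all genes, 3.2% were called higher at that size and 2.4% lower. Among the 5, AT1G66090, AT1G72900 and AT1G57630 were dim in WT, at percentiles 44.5, 40.7 and 40.5 of all probe sets. AT1G72920 stood at percentile 50.6. Whether signal at these levels is above background was not tested, which makes the count at this size uncertain. In 11 members all 3 ka120 arrays lay above all 3 WT arrays, and in 3 they lay below, where 21.8% of all genes were separated in each direction. The median log2 difference over the 28 members was -0.01, against -0.03 over all genes, and the calls lay in a subset of the members. A median over mostly dim members does not show that the rest were unchanged.

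**Figure D1:**
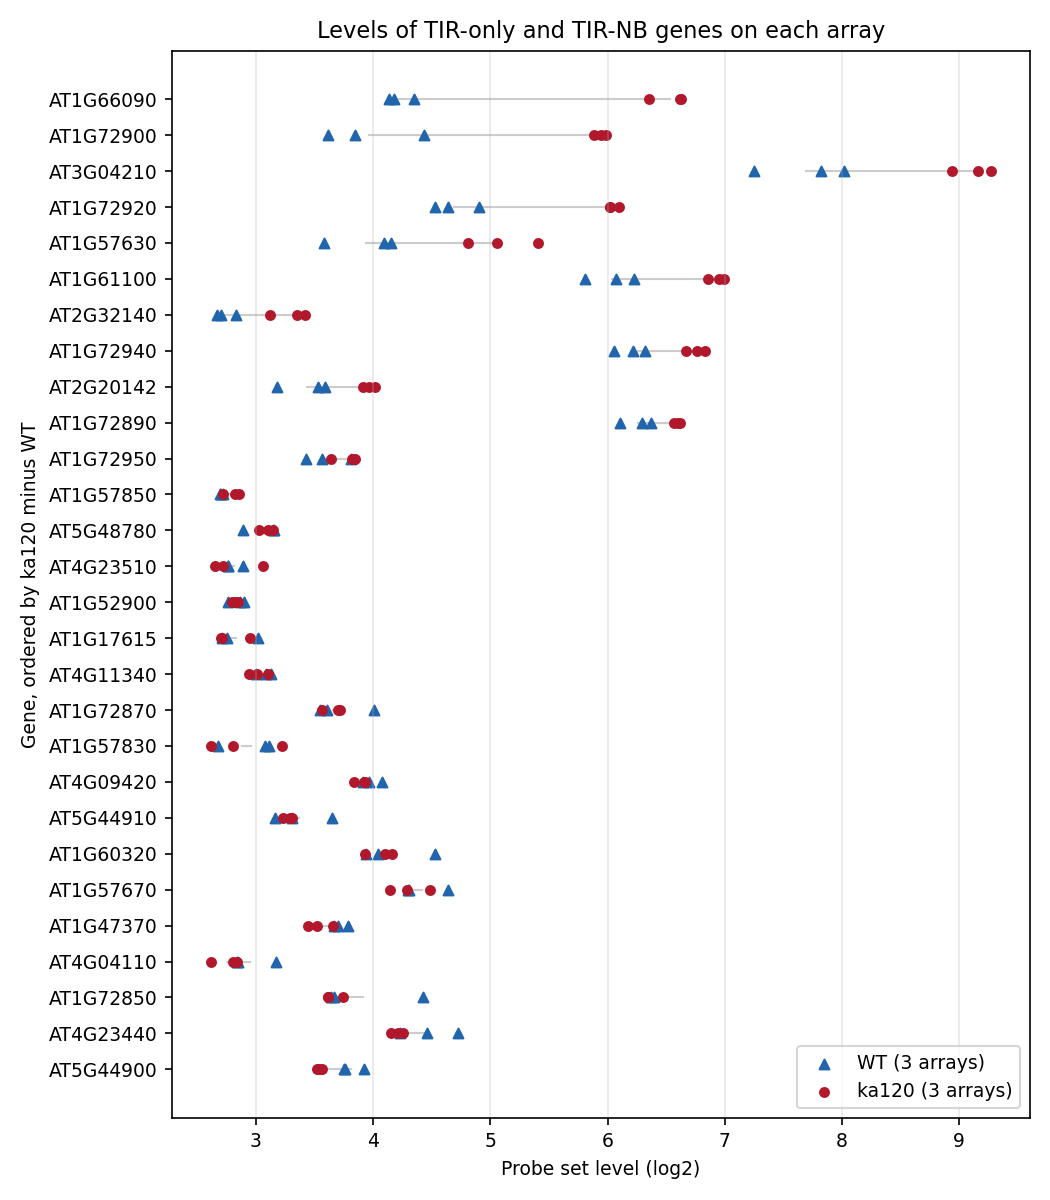
Log2 probe set level (horizontal axis) of the 28 measured genes (vertical axis, ordered by the difference between genotypes) on each of the 3 ka120 arrays (circles) and 3 WT arrays (triangles), with a line joining the genotype means. The 10 genes at the top have all ka120 arrays above all WT arrays, whereas most genes at the bottom are dim and overlap.

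AT1G66090, which encodes a TIR-NB protein, rose most. It gave 6.62, 6.62 and 6.36 in ka120 and 4.13, 4.35 and 4.18 in WT. The gap between the genotypes was thus far wider than the spread within either, and the log2 difference was 2.31 (SE 0.11, limma adjusted p = 7.6e-08). In WT the gene was below the middle of the array, at percentile 44.5 of all probe sets, and in ka120 it reached percentile 73.0. Since a WT level this dim was not shown to exceed background, no fold is given for it or for other members below the middle of the array.

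The next group of rises came from a run of TIR genes on chromosome 1. In the gene order of the TAIR10.1 annotation, the loci from AT1G72850 to AT1G72950 include 9 listed members, interspersed at one end with the LRR-bearing TIR-NB-LRR genes AT1G72840 and AT1G72860. Of the 9 members 7 were measured: 4 rose, 0 fell and 3 did not pass, where 17.5% of all genes were called higher and 15.5% lower. By mean level over all arrays, the 4 that rose lay above the median probe set and the 3 others below it. Of all genes, 28.8% were called higher above that level and 8.23% at or below it. A mean over all arrays moves up with a rise, and AT1G72900 stood at percentile 40.7 in WT and 64.7 in ka120. Its place above the median probe set thus came from its own rise. AT1G72900 gave 5.95, 5.89 and 5.99 in ka120 and 3.84, 3.61 and 4.43 in WT (log2 difference 1.98, SE 0.17, limma adjusted p = 7e-06). The ka120 arrays were close together and the spread was on the WT side, where the highest array still lay well below the mutant.

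AT1G72920 gave 6.02, 6.10 and 6.02 in ka120 and 4.64, 4.90 and 4.53 in WT, which is 2.56-fold higher in ka120 (log2 difference 1.36, SE 0.11, limma adjusted p = 3.67e-06). Its WT mean lay only just above the middle of the array, at percentile 50.6. That level was not shown to exceed background either, so the fold is uncertain. AT1G72940 gave 6.67, 6.76 and 6.83 in ka120 against 6.05, 6.32 and 6.22 in WT, 1.47-fold higher (log2 difference 0.56, SE 0.10, limma adjusted p = 0.0011). Both genes had separated genotypes, with a smaller step in AT1G72940. AT1G72890, at 6.57, 6.60 and 6.62 in ka120 and 6.10, 6.30 and 6.37 in WT, was 1.27-fold higher (log2 difference 0.34, SE 0.10, limma adjusted p = 0.0169). Its call was lost after centring each array on its median (0.22, adjusted p = 0.0897), and in the fits without ka120 replicate 3 (0.33, adjusted p = 0.058) or with WT replicate 1 left out (0.26, adjusted p = 0.0552).

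The rises lay next to each other. The 4 genes that rose are contiguous among the measured listed genes, from AT1G72890 to AT1G72940, with AT1G72910 and AT1G72930 among them not analysed here. At the near end AT1G72850 and AT1G72870 gave log2 differences of -0.25 and -0.06, and at the far end AT1G72950 gave 0.17, with adjusted p-values of 0.323, 0.759 and 0.304. The TIR-NB-LRR neighbours AT1G72840 and AT1G72860 did not pass either, at 0.24 (SE 0.10) and -0.13 (SE 0.14).

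The difference in response between neighbouring genes was described for 5 pairs chosen after the values had been seen, from the difference between both genes on each array. With 3 arrays against 3 the exact two-sided permutation test cannot go below p = 0.1, so no pair could pass. Because the pairs were also picked from the values tested, neither the exact nor the adjusted p-values can decide whether the responses differed. The sizes below are descriptive. AT1G72900 exceeded AT1G72890 in its response by 1.64 on the log2 scale (SE 0.22, exact p = 0.1, 0.125 adjusted over the 5 pairs). At the borders of the run the differences were smaller: AT1G72890 exceeded AT1G72870 by 0.40 (SE 0.23, exact p = 0.1, 0.125 adjusted), and AT1G72940 exceeded AT1G72950 by 0.39 (SE 0.22, exact p = 0.2, also 0.2 adjusted). The border genes AT1G72870 and AT1G72950 were dim, with WT means no higher than percentile 36.5, so these values do not show where the response ends. Tandem genes of this kind can be similar in sequence, and how far their probe sets also read a neighbour was not tested.

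**Figure D2:**
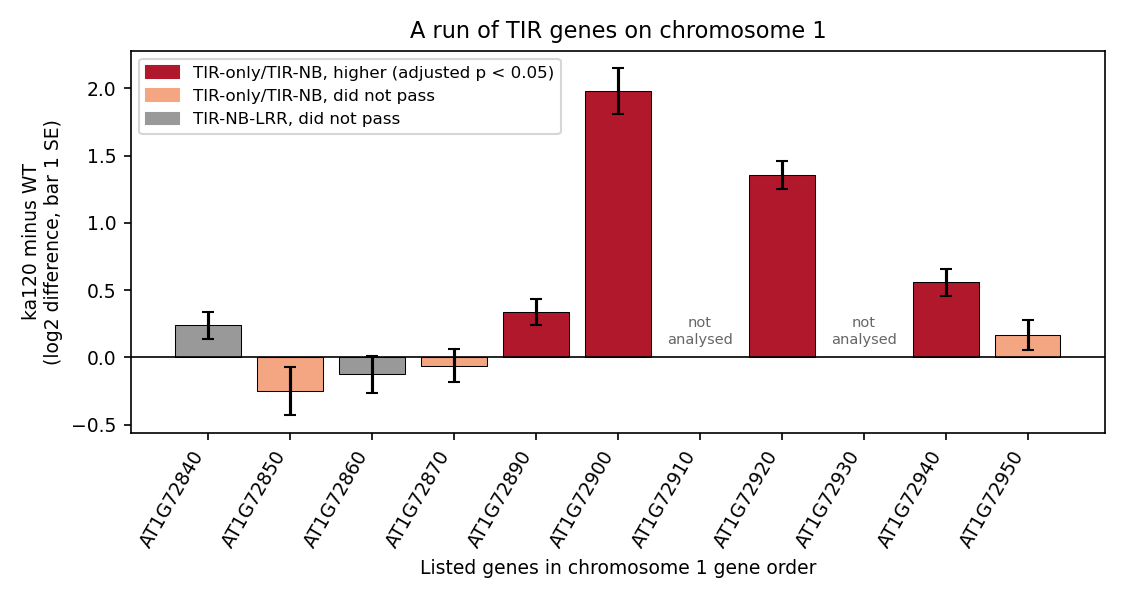
Log2 difference between ka120 and WT (vertical axis, bars with 1 SE) for the listed TIR genes of the chromosome 1 run in gene order (horizontal axis); grey bars are TIR-NB-LRR genes. The called rises run from AT1G72890 with 0.34 to AT1G72940 with 0.56, the largest of them being AT1G72900 with 1.98.

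AT3G04210, known as TN13, encodes a TIR-NB protein that was found to associate with an importin-alpha, the class of adaptors that link cargo to nuclear transport receptors. Its probe set stood at percentile 86.7 in WT and 95.6 in ka120. The levels were 9.16, 8.93 and 9.27 in ka120 and 8.02, 7.82 and 7.25 in WT, which is 2.69-fold higher in ka120 (log2 difference 1.43, SE 0.17, limma adjusted p = 8.22e-05). The lowest mutant array lay above the highest WT array, and the WT arrays differed more among themselves. The adjacent TIR-NB-LRR gene AT3G04220 gave 4.57 ± 0.08 in ka120 and 4.58 ± 0.14 in WT (log2 level, SD, n = 3 arrays each) and did not pass the test, at a difference of -0.01. The log2 difference of TN13 exceeded that of this neighbour by 1.43 (SE 0.17), and the arrays of the genotypes did not overlap. The exact permutation p was 0.1, the smallest possible (0.125 adjusted over the 5 pairs), so the test itself could not pass. AT3G04220 lay just below the middle of the array, at percentile 49.2 in WT, and was not shown to exceed background. These values therefore do not show that the genes responded differently.

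Of the members outside the chromosome 1 run, AT1G57630, which encodes a TIR-only protein, also rose by over 1 on the log2 scale. It gave 5.41, 4.81 and 5.06 in ka120 and 4.10, 3.58 and 4.15 in WT (log2 difference 1.15, SE 0.17, limma adjusted p = 0.000381). Here the spread was wide in both genotypes, though the arrays stayed apart. AT1G57670, with 2 protein-coding genes between it and AT1G57630, gave -0.11 (SE 0.12) and did not pass. Further along, AT1G57830 and AT1G57850 lie next to each other and gave -0.07 and 0.10, without passing.

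AT1G61100 gave 6.95, 6.86 and 6.99 in ka120 and 5.81, 6.23 and 6.07 in WT, 1.86-fold higher in ka120 (log2 difference 0.90, SE 0.11, limma adjusted p = 0.000105). Its probe set stood at percentile 67.4 in WT, above the middle of the array. The remaining rises were in dim genes of chromosome 2. AT2G32140, which encodes a TIR-only protein, gave 3.42, 3.12 and 3.35 in ka120 and 2.67, 2.71 and 2.83 in WT (log2 difference 0.56, SE 0.10, limma adjusted p = 0.0014). AT2G20142, also TIR-only, gave 4.02, 3.96 and 3.91 in ka120 and 3.53, 3.18 and 3.59 in WT (log2 difference 0.53, SE 0.12, limma adjusted p = 0.00384). The genotypes were separated in both, but the WT means lay at percentiles 4.93 and 29.8, where a level was not shown to exceed background.

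The 1 lower call was AT5G44900, at 3.54, 3.52 and 3.56 in ka120 and 3.92, 3.76 and 3.75 in WT (log2 difference -0.27, SE 0.09, limma adjusted p = 0.036). The genotypes were separated by a narrow margin at a dim level. The call was lost in 9 of the 15 alternatives in which the gene was fitted, among them all those that left out 1 array except WT replicate 3, and its sign turned when an offset seen in the hybridization controls was removed (0.17, adjusted p = 0.243). Its neighbour AT5G44910 gave -0.09 (SE 0.12) without passing.

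The 17 members that did not pass had log2 differences between -0.27 and 0.17, of which 13 were below 0 and 4 above. All 17 were dim, with WT means at percentiles 4.25 to 47.9, and in 14 of them the arrays of the genotypes overlapped. RBA1 (AT1G47370), a TIR-only protein that mediates cell death in response to a bacterial effector, gave 3.45, 3.66 and 3.52 in ka120 and 3.78, 3.70 and 3.66 in WT (log2 difference -0.17, SE 0.09, limma adjusted p = 0.187). It was called lower after median centring (-0.30, adjusted p = 0.0295). TN2 (AT1G17615), a TIR-NB protein required for the autoimmunity of exo70B1 mutants, gave 2.95, 2.71 and 2.72 in ka120 and 3.02, 2.76 and 2.71 in WT. At percentile 7.99 in WT, TN2 was among the dimmest probe sets, and its log2 difference was -0.04 (SE 0.11, limma adjusted p = 0.832).

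SOC3 (AT1G17600), a TIR-NB-LRR receptor encoded beside TN2 with 1 gene between them, rose by 0.61 on the log2 scale (SE 0.09, limma adjusted p = 0.000209). The log2 difference of SOC3 exceeded that of TN2 by 0.65 (SE 0.11, exact permutation p = 0.1, 0.125 adjusted over the 5 pairs). That p is the smallest possible, so the test could not pass, and the TN2 level was not shown to exceed background. These values therefore do not show that SOC3 and TN2 responded differently. In AT5G48780 and AT4G09420 neither the member nor its TIR-NB-LRR neighbour passed: AT5G48780 gave 0.03 beside -0.05 for AT5G48770, and AT4G09420 gave -0.09 beside -0.01 for AT4G09360.

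AT4G23440 gave 4.15, 4.21 and 4.25 in ka120 and 4.72, 4.23 and 4.46 in WT (log2 difference -0.27, SE 0.12, limma adjusted p = 0.121). It overlapped on WT replicate 2 and was called lower without that array (-0.39, adjusted p = 0.0268), under quantile normalization (-0.36, adjusted p = 0.0386) and after median centring (-0.39, adjusted p = 0.0242). AT1G72850, in the chromosome 1 run, had an equally large negative value that came from a single array: WT replicate 1 gave 4.42, where WT replicates 2 and 3 gave 3.64 and 3.66 and the ka120 arrays 3.62, 3.74 and 3.61. WT replicate 1 was the highest of the WT arrays in 13 of the 17 members that did not pass and in 1 of the 10 that rose. The other members that did not pass were AT4G04110 at -0.20 (called lower after median centring, -0.32, adjusted p = 0.0472), AT1G60320 at -0.10, AT4G11340 at -0.05, AT1G52900 at -0.02 and AT4G23510 at 0.01 on the log2 scale.

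**Figure D3:**
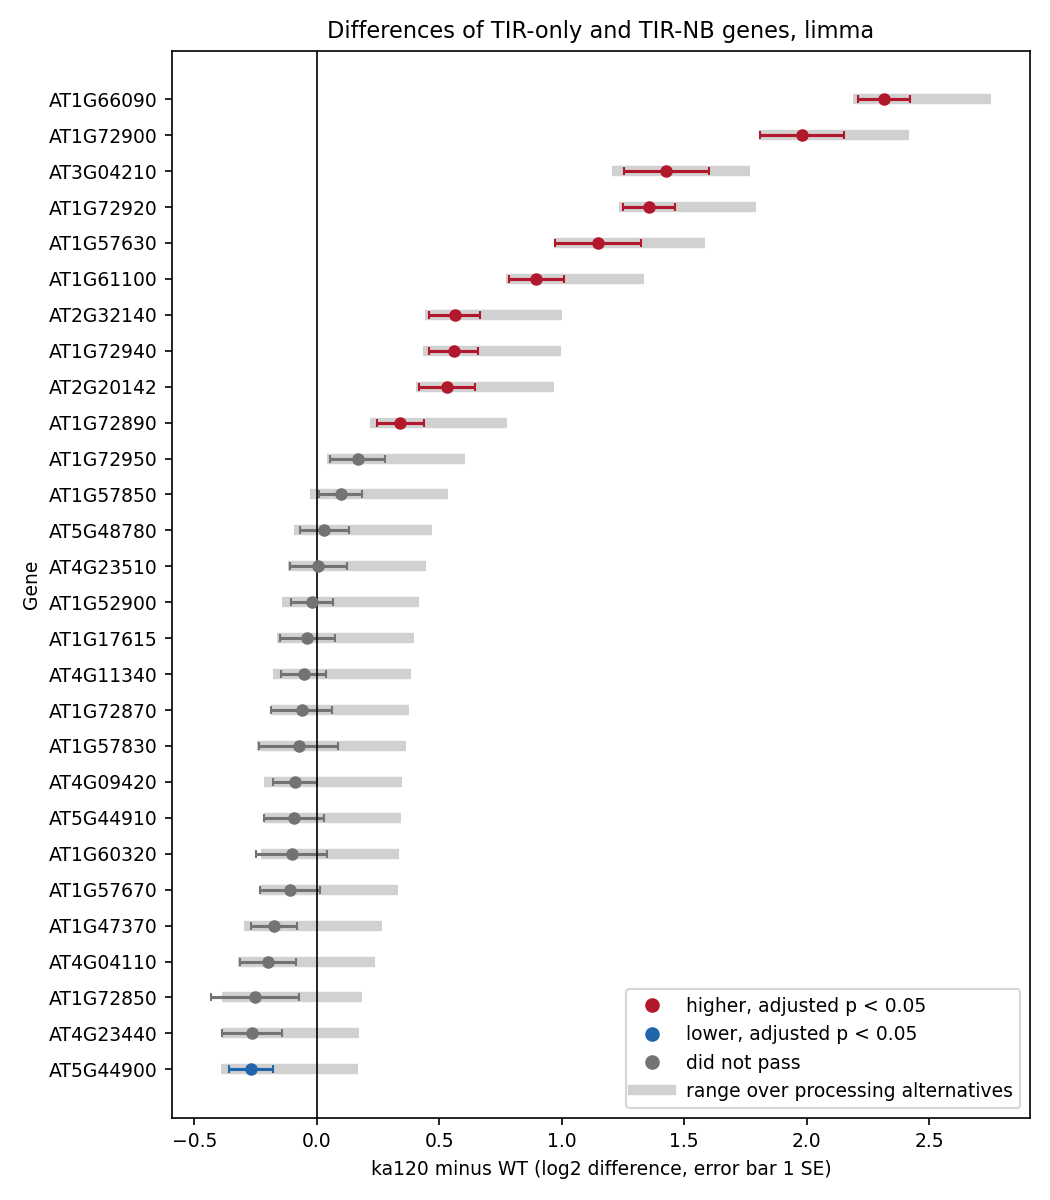
Log2 difference between ka120 and WT for the 28 measured genes (points with 1 SE), coloured by whether they passed an adjusted p of 0.05; pale bars span the values under all processing alternatives. The bars of the 10 genes that rose stay above 0, whereas that of AT5G44900 runs from -0.39 to 0.17.

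Small differences in these arrays depended on the scaling. The hybridization controls, bacterial and phage transcripts added in known amounts, were lower in ka120 at the dim end, BioB by -0.44 and BioC by -0.26, while the brightest, Cre, differed by 0.02 (ka120 minus WT, log2). Centring on these controls raised the median log2 difference of all probe sets from -0.02 to 0.21 and gave 12 members called higher and 0 lower, where 32.9% of all genes were called higher. Removing the offset as a function of level raised that median to 0.41 and gave 23 members called higher and 0 lower, where 68.9% of all genes were called higher. The 10 rises kept their direction under every scaling tried, and the 9 other than AT1G72890 also kept their call. The level-dependent setting takes the BioB shift of -0.44 off every probe set dimmer than BioB, which holds for 27 of the 28 members, TN13 being the exception. Signs of small differences under it follow from that constant and carry no information on the members.

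Calls were not spread evenly over bright and dim members. Split by the mean level over all 6 arrays at the median probe set, 7 members were above it and all 7 rose, whereas of the 21 at or below it 3 rose, 1 fell and 17 did not pass. Over all genes 28.8% were called higher above that level and 8.23% at or below it, with 26.2% and 6.75% called lower. A mean that includes ka120 moves up with a rise, so the split was also made on WT alone. Of the 5 members then above the median probe set all 5 rose (TN13, AT1G72890, AT1G72940, AT1G61100 and AT1G72920), and of the 23 others 5 rose and 1 fell. Over all genes 26.1% and 10.4% were called higher in these classes. AT1G72920 lay only just above the split, at percentile 50.6 in WT. A change in the dim members may not be detectable at their signal, and these values do not show that they were unchanged.

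The full-length TIR-NB-LRR receptors are the family most like these genes. Of 63 measured TIR-NB-LRR genes among 90 listed, 21 rose and 2 fell, shares of 33.3% and 3.17% beside 35.7% and 3.57% for the members without LRR. The median log2 difference was 0.08 beside -0.01. Split at the median probe set in WT, 9 of 12 TIR-NB-LRR genes above it rose and 12 of 51 at or below it. Among all genes, 26.1% and 10.4% were called higher in these classes, and 17.5% higher and 15.5% lower without the split. A difference between the families was not tested, and nothing here is given as particular to the proteins without LRR.

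**Figure D4:**
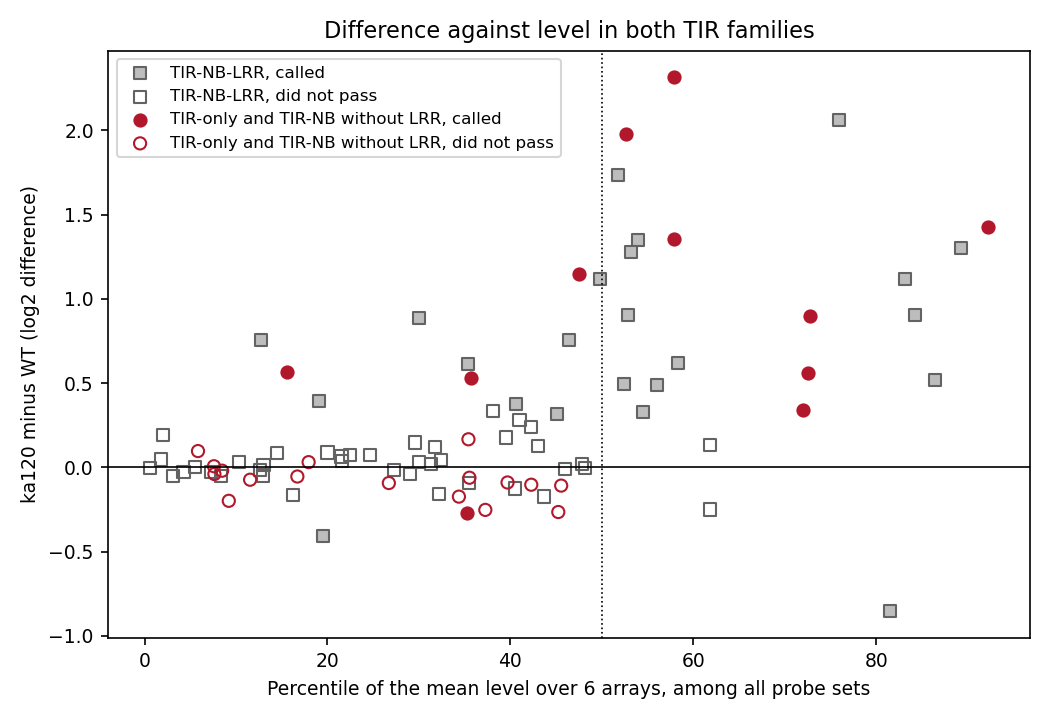
Log2 difference between ka120 and WT (vertical axis) against the percentile of each gene's mean level over 6 arrays among all probe sets (horizontal axis) for 28 TIR-only and TIR-NB genes (circles) and 63 TIR-NB-LRR genes (squares); filled symbols passed an adjusted p of 0.05 and the dotted line marks the median probe set. To its right all 7 circles lie above 0, and to its left most symbols lie near 0; some genes are to the right only through their ka120 level.

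Few genes that act downstream of TIR proteins had a single-gene probe set in the annotation used. Others may be on the array without being assigned there. Of 11 listed EDS1 partners and helper receptors 3 were measured and 2 rose, where 17.5% of all genes were called higher. So few genes do not stand for the pathway. The EDS1 homologue encoded by AT3G48080 gave 4.30, 4.98 and 4.88 in ka120 and 2.85, 2.58 and 2.58 in WT (log2 difference 2.05, SE 0.16, limma adjusted p = 3.73e-06). SAG101, which with EDS1 forms one of the complexes that sense TIR products, gave 4.87, 5.11 and 5.15 in ka120 and 3.59, 3.35 and 3.34 in WT (log2 difference 1.62, SE 0.11, limma adjusted p = 1.26e-06). Both were dim in WT, at percentiles 3.39 and 29.7, and stood near the middle of the array in ka120. AT5G66890, a short relative of the NRG1 helper receptors, gave 0.25 (SE 0.10, limma adjusted p = 0.0716) and passed without WT replicate 1 (0.31, adjusted p = 0.0374), under quantile normalization (0.28, adjusted p = 0.0309) and under both control-based scalings.

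Of 7 listed chaperones of NB-LRR receptors the 1 measured gene, SGT1A (AT4G23570), a co-chaperone of HSP90, rose. It gave 7.79, 7.72 and 7.67 in ka120 and 6.66, 6.81 and 6.68 in WT, 2.02-fold higher in ka120 (log2 difference 1.01, SE 0.09, limma adjusted p = 8.42e-06). Of 16 listed genes of salicylic and pipecolic acid synthesis and response the 1 measured gene was SARD4 (AT5G52810), an enzyme of pipecolic acid synthesis. SARD4 gave 6.18, 6.10 and 6.42 in ka120 and 5.16, 4.84 and 4.89 in WT (log2 difference 1.27, SE 0.12, limma adjusted p = 1.18e-05). The genotypes were well apart in both genes. With 17.5% of all genes called higher, 1 measured gene does not stand for its list. The 9 listed importin-alpha genes are not analysed here.

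The 8 listed members with no single-gene probe set in the annotation used are AT1G09665, AT1G65390 (PP2-A5), AT1G72910, AT1G72930 (TIR), AT2G03030, AT2G03300, AT4G16990 (RLM3) and AT5G44920 (TIK). They are not analysed here as single genes. AT2G03030 and AT2G03300 share 1 probe set, which gave 2.86, 3.09 and 3.07 in ka120 and 3.34, 3.09 and 3.16 in WT. That probe set cannot be assigned to either gene, and its log2 difference of -0.19 did not pass the test (SE 0.10, limma adjusted p = 0.198).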

How the data were processed

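Biotin-labelled RNA was hybridized to 3-prime expression arrays, 1 for each sample. The deposited table holds a log2 level for each probe set, judging by its range of values. Per the submitters' processing notes the affy package was used. The sources used here do not give the background correction, normalization, summary, slides, scan dates or detection calls. Titles of the samples gave the genotype.

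Of 22810 probe sets 64 array controls were left out and 22746 tested. In the platform annotation, brought up to TAIR10.1 names by gene identifier, 13513 probe sets had a single gene and 503 had several. The remaining probe sets had no gene in it and were tested but not assigned. A listed gene not measured here may therefore still have a probe set on the array. Where a gene had several probe sets the brightest was taken. All probe sets were fitted together with lmFit and eBayes of limma 3.58.1 (R 4.3.3) without a block or filter, and p-values were adjusted by Benjamini-Hochberg with a threshold of 0.05. The fit was tested on simulated data with independent noise. These held no offset like that of the hybridization controls, so the test does not cover such an offset. Arrays correlated across probe sets at 0.993 to 0.997 within and 0.961 to 0.965 between genotypes. The number of arrays limits precision.

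The members, gene lists and alternatives were chosen with earlier results of these data known. Named genes were all members, the TIR-NB-LRR genes at most 5 genes away, the measured pathway genes, KA120 and cell type markers. Alternatives covered scaling, filtering, the variance prior, array weights, a replicate block, probe set choice and each array left out. For arrays of the same replicate number the deviations from the genotype means correlated at -0.01, -0.19 and 0.13, so the numbers were not taken as pairs. No sequences are shown, as the tables used hold none.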

Additional observations from a re-analysis of the deposited data

How the results depend on the processing

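The number of arrays and the dim level of most members limit these results. The 10 higher calls were 8 to 12 in all alternatives except with the level-dependent control offset removed (23). The 8 came from leaving out the dimmest 40% of probe sets by mean level over all arrays, which left 11 members (median 0.90, 0 lower). Of the genes left, 29.3% were called higher. That filter took out AT5G44900, the 1 lower call, and the rises AT2G32140 and AT2G20142, so these were not retested. The 1 lower call became 2 under quantile normalization, 4 after median centring, and 0 on hybridization controls, with the level-dependent offset, with an intensity trend and robust prior, and with the replicate block. With 1 array left out it was 0 or 1, the higher calls 9 or 10, TIR-NB-LRR genes 17 to 22 higher and 1 or 2 lower, and the members' median -0.04 to 0.07. With the replicate block 7868 probe sets were called (8165 without it), and no other member changed its call. TIR-NB-LRR genes called lower numbered 4 after median centring and 1 on hybridization controls, with the level-dependent offset and without dim probe sets, and those called higher 32 and 57 under the control-based scalings. The members' median moved to -0.13 when arrays were centred on their medians, to 0.22 when centred on hybridization controls and to 0.43 without the level-dependent offset, a setting that called 16860 probe sets. These shifts follow from the added offsets. All probe sets share the noise of the controls, and limma's prior degrees of freedom went from 6.65 to 15.8 and 36.9. Adjusted p-values under both scalings may therefore be too small and should not be read at face value. Their calibration was not tested.

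Removing the level-dependent offset adds 1 constant to dim probe sets, so that sign changes under it follow from its construction and say nothing of the members. All 14 members below 0 turned above it: AT1G72870 (0.38), AT1G17615 (0.40), AT1G57670 (0.33), AT1G57830 (0.36), AT1G60320 (0.33), AT1G52900 (0.42), AT4G09420 (0.35), AT4G11340 (0.38), AT5G44900 (0.17) and AT5G44910 (0.34), and, with no call in either setting, AT1G72850 (0.19), AT4G23440 (0.17), AT4G04110 (0.24) and AT1G47370 (0.26). So did the TIR-NB-LRR genes AT3G04220 (0.43), AT5G48770 (0.39), AT4G09360 (0.42) and AT1G72860 (0.31).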
